A study of Homo sapiens with 4 samples.

Results

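The regions described here lie on the proximal long arm of human chromosome 6. They are H3K4me1 peaks in HepG2 cells, a liver tumour line, called where reads from LSD2-knockdown cells exceeded reads from control cells. Members were chosen by position: every distinct peak of chromosome 6 whose midpoint lay between 61.9 and 107 Mb of hg19. There were 2393 of them, out of 12338 distinct peaks on chromosome 6 and 160601 in the whole list. They made up 19.4% of the peaks of chromosome 6 on 26.9% of its length. The stretch had been picked from this same peak list because its density was low, so its low density describes how it was chosen and was given no test. Widths, spacing and repeated rows come from the same peak call, and they are also given as descriptions without tests.

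The study had 4 libraries, 1 of each kind. HepG2 cells treated with siRNA against LSD2 gave an H3K4me1 ChIP library and an input library, and cells of the control condition gave the same pair. Control cells had received a control siRNA, which the header of the peak list names GL3, a name used for siRNA against firefly luciferase. All were the same cell line in the same high-glucose medium, and the peak call names the knockdown ChIP library over the control ChIP library and neither input. With 1 library per condition nothing below has a replicate check, every value describes that pair of libraries, and the intervals cover counting error only. Library depth is unknown, and regions higher in control cells were not analysed here.

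H3K4me1 is a single methyl group on lysine 4 of histone H3. It is laid down by enzymes of the MLL family and marks enhancers and the flanks of active promoters. LSD2, encoded by KDM1B, removes mono- and dimethyl groups from this lysine and is known to act within gene bodies, whereas its relative LSD1 acts mainly at promoters and enhancers. The proximal long arm of chromosome 6 is known for long genes of the nervous system and retina, such as GRIK2, a glutamate receptor subunit, EPHA7, an ephrin receptor, and EYS, a photoreceptor protein. No gene was set against the peaks here, because no hg19 annotation was used, and regions are given by position alone.

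The stretch was thinly filled relative to its own chromosome and only slightly so relative to the other autosomes. It held 53.1 peaks per Mb (95% Poisson interval 50.98 to 55.3), against 81.1 (79.5 to 82.7) over the rest of chromosome 6, a ratio of 0.655 (0.626 to 0.685). Both flanks gave about the same figure, 80.2 peaks per Mb before the peak-free gap at the centromere and 81.9 past 107 Mb. The other 21 autosomes together held 57.3 peaks per Mb, to which the stretch had a ratio of 0.926 (0.889 to 0.964), and the median of these chromosomes was 53.7. Of them, 12 were denser than the stretch and 9 were sparser, so its level falls inside the range of whole autosomes. The rest of chromosome 6 lies above that range, but it is a chromosome with its sparse stretch taken out. Chromosome 6 as a whole held 73.6 peaks per Mb, less than chromosome 2 with 76.4. Cutting these autosomes into 44 consecutive pieces as long as the stretch gave 33 denser and 11 sparser pieces, with a median of 56.7 peaks per Mb. A piece of chromosome 2 reached 87.4 peaks per Mb, above the rest of chromosome 6. Peaks covered 1.69% of the stretch, against 2.97% of the rest of chromosome 6 and 1.95% of the other autosomes.

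**Figure D1:**
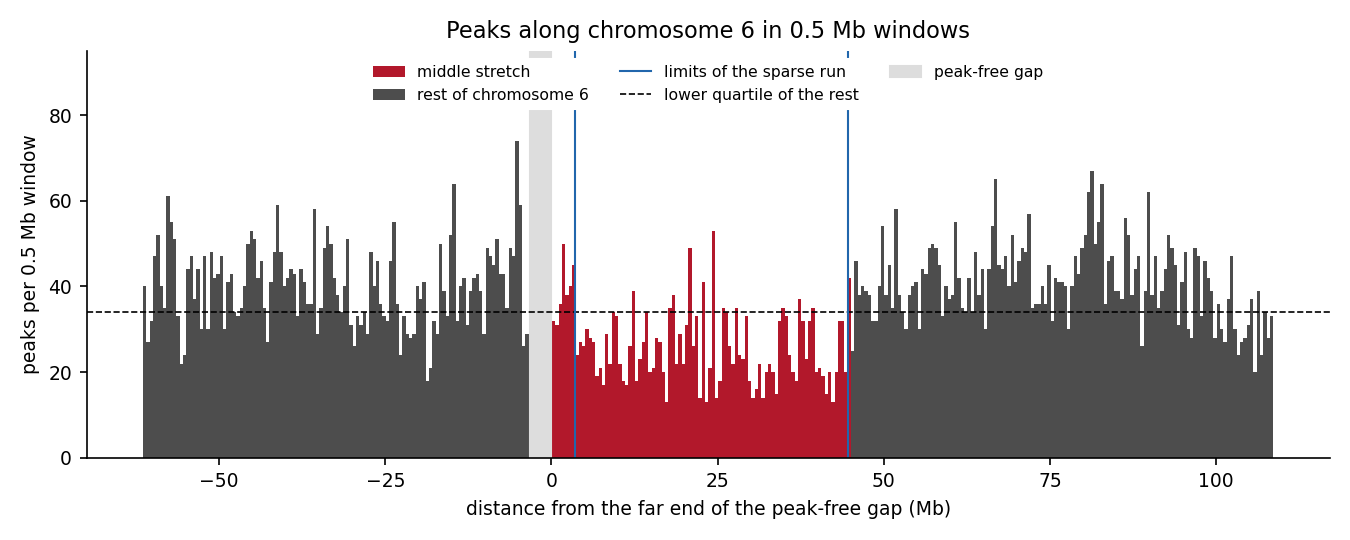
Number of peaks (vertical axis) in each full 0.5 Mb window along chromosome 6, placed by distance in Mb from the far end of the peak-free gap at the centromere (horizontal axis). Bars of the middle stretch are red and those of the rest of the chromosome are dark grey, the dashed line is the lower quartile of the rest (34 peaks), and the blue lines mark the sparse run; 70 of the 90 red windows fall under the dashed line.

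In windows of 0.5 Mb, the fall came 3.58 Mb past the gap and not at the gap itself. The first peak of the stretch spanned 61920056 to 61920348 and the last peak before the gap spanned 58757013 to 58757165, with 3.16 Mb free of peaks between them. The first 7 full windows, from 62 to 65.5 Mb, held 32, 31, 36, 50, 38, 40 and 45 peaks. The next 7 held 24, 27, 26, 30, 28, 27 and 19. Over the 4 windows on each side of 65.5 Mb the sum was 107 peaks beyond it and 173 before it, a ratio of 0.618. That sum before it leaves out the windows of 32, 31 and 36 peaks nearest the gap. Every one of the first 7 windows held more peaks than any of the next 7. The edge beside the gap carried 276 peaks at 77.1 per Mb (68.3 to 86.7), which was 0.951 of the rest of chromosome 6 (0.841 to 1.07). This edge ends where the first low run begins, so its higher density follows in part from how it was delimited.

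A window was called low when it held fewer than 34 peaks, the lower quartile of the 243 full windows in the rest of chromosome 6. Low windows made up 70 of the 90 full windows of the stretch (77.8%), against 60 of 243 in the rest (24.7%, a share that the use of their lower quartile fixes). Past the gap, the first run of at least 4 low windows began at 65.5 Mb. The low windows from 62 to 63 Mb, with 32 and 31 peaks, made a run of only 2 and did not count. The last such run that began below the upper limit of 107 Mb ended at 106.5 Mb. Runs that began farther on were not counted, such as one from 164.5 to 167 Mb. Within 65.5 to 106.5 Mb, which is called the sparse run below, 2075 peaks lay at 50.6 per Mb (48.5 to 52.8). The sparse run was therefore 0.624 as dense as the rest of chromosome 6 (0.595 to 0.654), and 17 of the other 21 autosomes were denser than it. Its limits were set by low windows, so its low density and rank follow in part from how it was delimited. Least-squares divisions of the windows past the gap into 4, 5, 6 or 7 level segments placed a limit at 65.5 Mb, and those into 2 or 3 did not. These divisions use the same window counts as the low runs, so they are no separate check. The upper limit came at 107.5 Mb in the divisions into 2, 3, 4 and 6 segments and at 106.5 Mb in those into 5 and 7, so the rise lay on either side of 107 Mb depending on the division.

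The return to higher density came near 107 Mb. Windows from 104.5 Mb onwards held 20, 32, 32, 20 and 42 peaks up to 107 Mb, and then 25, 46, 38 and 40. Around 106.5 Mb the 4 windows beyond held 151 peaks and the 4 windows before held 104, a ratio of 1.45. The last member spanned 106994956 to 106995581, 626 bp, and the first peak outside began 5.01 kb farther on, from 107000589 to 107001122, 534 bp. Around 107 Mb itself the 4 windows beyond held 149 peaks and the 4 windows before held 126, a ratio of 1.18, although the single window just inside held 42 and the one just outside 25. The far flank was not level either: from 161.5 to 170.5 Mb its windows averaged 31.1 peaks, against 42.8 from 107.5 to 161.5 Mb in the same division.

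Inside the stretch the counts were uneven, and some of its fullest windows stood beside some of its emptiest. Windows ranged from 13 to 53 peaks, with a median of 25 and quartiles of 20 and 33, against a range of 18 to 74 and a median of 40 in the rest of chromosome 6. The variance of window counts was 3.05 times their mean, against 2.20 in the rest. Both are more than Poisson counting assumes, so the intervals of densities and of their ratios are too narrow. In all, 28 windows of the stretch (31.1%) held 20 peaks or fewer, a level met in 2 of the 243 windows of the rest. In the other autosomes 1246 of 5006 windows (24.9%) held 20 peaks or fewer and the variance was 4.32 times the mean. At the other end, 6 windows of the stretch exceeded the median of the rest.

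Unbroken low runs were long at both ends of the sparse run and again past 90 Mb. The first, from 65.5 to 71 Mb, was 11 windows long with a mean of 24.5 peaks. A run of 13 windows from 90 to 96.5 Mb was the longest and averaged 21 peaks, and one of 10 windows from 101.5 to 106.5 Mb averaged 21.2. The longest low run in the rest of chromosome 6 was 5 windows. In the other autosomes, where 68.3% of windows were low by this limit, it was 103 windows. Between the long runs, 14 windows of the sparse run were not low. They were scattered from 71 to 101.5 Mb. Of them, 8 held 34 or 35 peaks and 3 exceeded the median of the rest, 40 peaks.

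The fullest window of the stretch, from 86000001 to 86500000, held 53 peaks. Its neighbours held 13 and 21 before it and 14 and 18 after it. It also had the largest median width of the 5 fullest windows, 367 bp, with 19 peaks of 420 bp or wider and 10 peaks that were listed in more than 1 row. The other full windows were 63.5 to 64 Mb with 50 peaks, 82.5 to 83 Mb with 49, 65 to 65.5 Mb with 45 and 106.5 to 107 Mb with 42. Of these 5, 3 thus lay in the short edges outside the sparse run, and a pair lay within it. The emptiest windows were 79 to 79.5, 85 to 85.5 and 104 to 104.5 Mb with 13 peaks each, then 84 to 84.5 and 86.5 to 87 Mb with 14 each. Windows from 92 to 92.5 and from 93.5 to 94 Mb also held 14 and were left out by position alone. Of the 5 named emptiest windows, 3 lay within 2 Mb of the fullest one. Among those 3, the pair with 14 peaks was named only through that tie-break.

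Wide peaks were the ones most thinned out. Peaks under 220 bp lay at 12.4 per Mb in the stretch and 17.1 per Mb in the rest of chromosome 6, a ratio of 0.722 (95% interval 0.656 to 0.793). Peaks of 220 to 419 bp had nearly the same ratio, 0.740 (0.698 to 0.783). For peaks of 420 to 999 bp it was 0.403 (0.356 to 0.454), with 6.77 per Mb in the stretch and 16.8 per Mb in the rest. Peaks of 1 kb or wider numbered 6 in the stretch and 175 in the rest, a ratio of 0.0933 (0.0338 to 0.207). The intervals of the upper 2 classes overlap neither those of the lower 2 nor each other. Set against the other 21 autosomes, the stretch held peaks under 220 bp at 0.962 and peaks of 220 to 419 bp at 0.987 of their density. Its peaks of 420 to 999 bp were at 0.697 and those of 1 kb or wider at 0.267 of that density. Relative to the other autosomes, then, the shortfall was in the peaks of 420 bp or wider. Such a low content was met elsewhere: of the 44 pieces of the other autosomes, 5 held 6 or fewer peaks of 1 kb or wider, and the median piece held 15. The share of peaks of 420 bp or wider, 13.0% in the stretch, was lower in 7 of the 44 pieces. Its lowest value among the pieces was 11.7% and its median 16.6%.

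**Figure D2:**
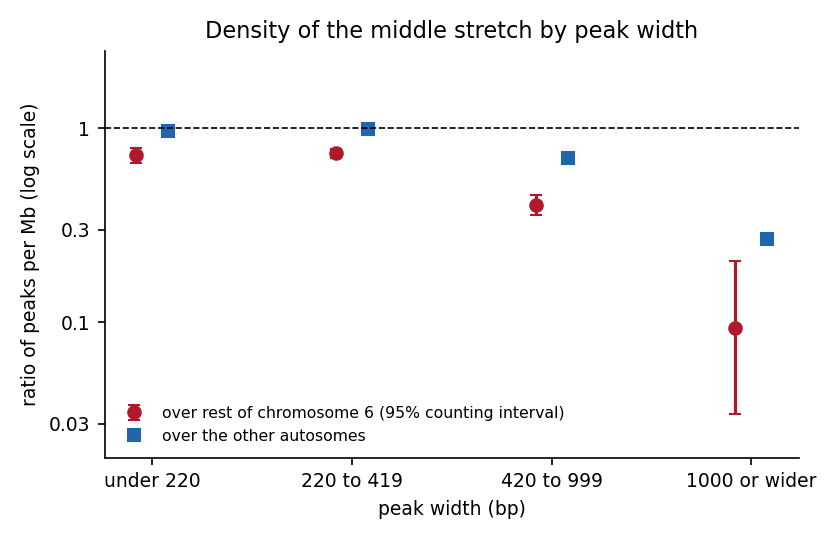
Peaks per Mb of the middle stretch over peaks per Mb elsewhere (vertical axis, log scale) in 4 classes of peak width in bp (horizontal axis). Red circles are ratios over the rest of chromosome 6 with 95% counting intervals and blue squares are ratios over the other 21 autosomes; in both, the classes under 420 bp sit near a common level and the ratio drops in the 2 wider classes.

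The median width was 307 bp in the stretch (quartiles 224 and 382 bp), against 327 bp in the rest of chromosome 6 (234 and 411 bp) and 316 bp in the other autosomes. The lower quartiles lay 10 bp apart and the upper quartiles 29 bp apart, so the 2 distributions differed mainly on their wide side. Peaks of 420 bp or wider were 13.0% of the stretch (95% Wilson interval 11.7 to 14.4%), against 22.5% of the rest (21.7 to 23.3%) and 17.8% of the other autosomes. With peaks within 1 kb merged, the shares were 19.97% in the stretch and 30.8% in the rest of chromosome 6.

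Fuller windows tended to have wider peaks, so peaks were also compared within windows of like count. In windows with 20 to 29 peaks, 8.47% of the peaks of the stretch were 420 bp or wider (6.81 to 10.5%), against 14.3% in the rest of chromosome 6 (11.9 to 17.1%) and 13.2% in the other autosomes. Windows with 30 to 39 peaks gave 17.3% in the stretch, 16.8% in the rest and 19.3% in the other autosomes, and the first of these intervals (14.9 to 19.9%) includes the other 2 values. Windows with 40 or more gave 18.8% in the stretch (14.9 to 23.4%), 26.0% in the rest (24.9 to 27.1%) and 24.3% in the other autosomes. Against the rest of chromosome 6, the smaller share of wide peaks in the stretch was thus seen in windows of 20 to 29 and of 40 or more peaks and not in those of 30 to 39. Windows under 20 peaks gave 7.26% in the stretch (4.84 to 10.7%) and 9.02% in the other autosomes, a value inside the interval of the stretch, and the rest of chromosome 6 had 1 such window.

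The widest peaks were not spread evenly. Of the 6 peaks of 1 kb or wider, 4 lay in the edge beside the gap, all in the window from 64 to 64.5 Mb, and a pair lay in the 41.0 Mb of the sparse run. The widest spanned 64433197 to 64435846, 2650 bp, and was more than 1 kb wider than any other member. The next 2 in that window spanned 64238999 to 64240239, 1241 bp, and 64236484 to 64237583, 1100 bp, with 1.42 kb between them. The fourth spanned 64384826 to 64385827, 1002 bp. In the sparse run the 2 peaks of this width spanned 90123567 to 90124769, 1203 bp, and 82551997 to 82553086, 1090 bp. The remaining 4 of the 10 widest peaks measured 935, 909, 892 and 880 bp and began at 82642664, 71273115, 84524601 and 80280003. In spite of its 4 widest peaks, the edge beside the gap had a lower median width than the sparse run, 293 against 307 bp.

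Spacing was longer in proportion to the lower density. The median gap between neighbouring peaks was 11.7 kb in the stretch (quartiles 4.33 and 24.7 kb), against 7.71 kb in the rest of chromosome 6 (2.70 and 16.5 kb) and 10.1 kb in the other autosomes. Divided by the mean gap, the median was 0.632 in the stretch and 0.644 in the rest, and the coefficient of variation of the gaps was 1.16 in the stretch and 1.12 in the rest. The shape of the spacing therefore differed little once its scale was set aside.

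**Figure D3:**
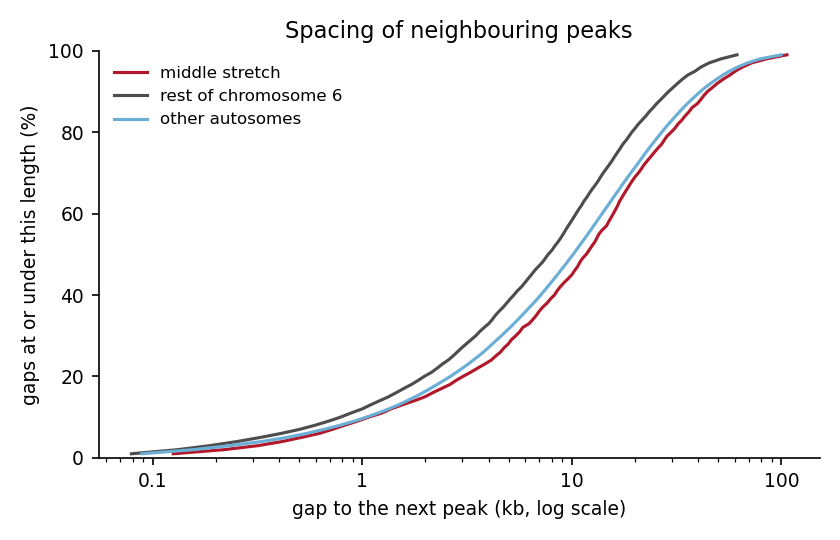
Share of gaps at or under a given length (vertical axis, percent) against the gap between neighbouring peaks (horizontal axis, kb, log scale). The curve of the middle stretch lies to the right of that of the rest of chromosome 6 at every percentile drawn, with medians of 11.7 kb in the stretch and 7.71 kb in the rest, and close to that of the other 21 autosomes.

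Long gaps were more frequent in the stretch than in the rest of chromosome 6. Gaps over 100 kb numbered 27 in the stretch, against 6 in the rest of chromosome 6, which is 2.72 times as long. All 27 lay in the sparse run, which holds 2074 of the 2392 gaps of the stretch and was delimited by its low windows. They took up 7.47% of the length of the stretch, 0.643% of the rest and 8.10% of the other autosomes. The longest, 204 kb, ran from 95630296 to 95834664, and the next, 175 kb, from 92735767 to 92910515, both in the longest low run. The others among the 5 longest were 150 kb from 73256796 to 73407148, 146 kb from 104113067 to 104259169 and 141 kb from 72825161 to 72966198. The peaks that bordered these 5 gaps were 194 to 401 bp wide. None reached 420 bp, a width that only 13.0% of all members reached, so little can be read from so few peaks. Isolated peaks, more than 50 kb from any other, numbered 20 in the stretch (0.836%), against 7 in the rest (0.0704%) and 0.825% of peaks in the other autosomes.

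Close neighbours were fewer. Another peak lay within 5 kb of 47.6% of the peaks of the stretch (45.6 to 49.6%), against 61.5% in the rest of chromosome 6 (60.5 to 62.4%) and 52.1% in the other autosomes. Within 1 kb the shares were 18.0% in the stretch and 22.5% in the rest, and within 20 kb they were 89.5% in the stretch and 95.9% in the rest. When peaks no more than 5 kb apart were joined into groups, groups of 5 or more numbered 16 in the stretch, 3.55 per 10 Mb, against 161 in the rest, 13.1 per 10 Mb. Peaks that stood alone made up 52.4% of the stretch and 38.5% of the rest. Neighbours and groups were counted at fixed distances, so these values depend on the density for which the stretch was picked. Groups were not counted in the other autosomes.

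The largest groups lay in windows of 32 to 41 peaks, above the median of the stretch. Of these, 3 groups held 8 peaks each: 84518055 to 84535064 (17.0 kb), 87908874 to 87923332 (14.5 kb) and 89575053 to 89595086 (20.03 kb). The next, of 7 peaks each, spanned 74412773 to 74433458 (20.7 kb) and 99855055 to 99870586 (15.5 kb). The first group holds a peak of 892 bp, one of the 10 widest of the stretch. Among the peaks of these 5 groups 1 was listed in more than 1 row. The largest group in the rest of chromosome 6 held 12 peaks.

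The deposited list writes some peaks in several identical rows, a property that neither the limits nor the density of the stretch used. What these repeats stand for is not given in the sources used here. Such repeats concerned 118 peaks of the stretch (4.93%, 4.13 to 5.87%), against 10.6% in the rest of chromosome 6 (9.97 to 11.2%) and 10.9% in the other autosomes. None of the other 21 autosomes as a whole had so low a share, the lowest being chromosome 13 with 6.92%. Among the 44 pieces of these autosomes the lowest share was 5.32%, on chromosome 13 from 64108975 to 109188919, which lies inside the interval of the stretch, and the median was 9.88%. Both flanks were higher than the stretch, with 8.71% before the gap and 12.2% past 107 Mb. No member was listed more than 3 times, whereas peaks in the rest of chromosome 6 were listed up to 7 times.

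**Figure D4:**
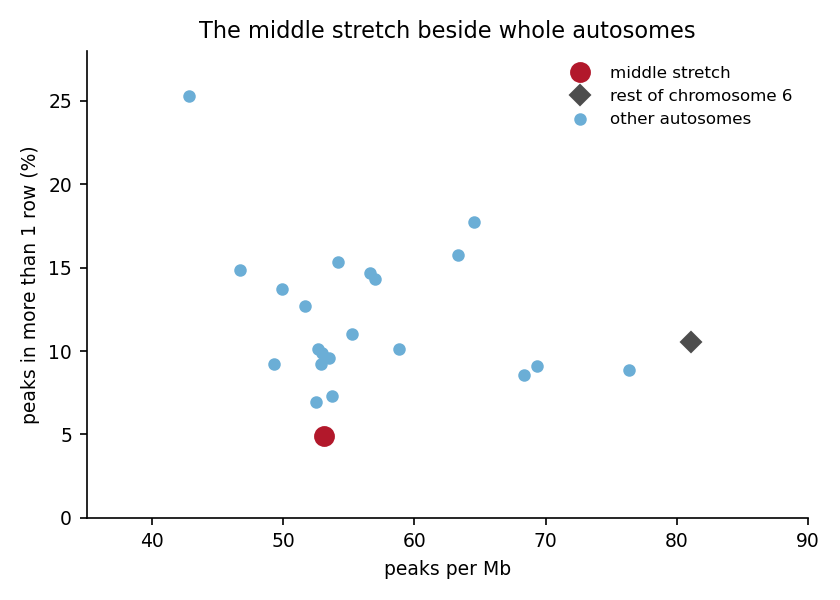
Share of peaks listed in more than 1 row (vertical axis, percent) against peaks per Mb (horizontal axis). The red circle is the middle stretch (53.1 peaks per Mb, 4.93%), the dark diamond the rest of chromosome 6 (81.1, 10.6%) and each blue circle 1 of the other 21 autosomes; the stretch sits in the middle of the autosomes by density and below all of them by repeated peaks.

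Repeated peaks came in short series separated by long stretches with none. The 118 peaks formed 61 unbroken series of neighbours, and 24 of these had at least 2 members and together held 81 peaks. The longest was 10 consecutive peaks from 64433197 to 64531866, beginning with the widest peak of the stretch. The next were 6 peaks from 86285264 to 86307520, in the fullest window, and 5 peaks from 75304744 to 75375183. Of the peaks that directly followed a repeated peak, 48.3% were repeated too, against 4.93% of all members. The 7 peaks listed 3 times lay at 75321101 to 75321337, 75324595 to 75324814, 83778271 to 83778737, 86391353 to 86391590, 97098701 to 97099063, 99972404 to 99972798 and 99973208 to 99973590. Their widths were 220 to 467 bp, so the most repeated peaks were not the widest ones.

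Repeated peaks occurred in 38 of the 90 windows of the stretch (42.2%), against 172 of 243 windows in the rest of chromosome 6 (70.8%). The longest span of windows with none was from 102 to 105 Mb, with 108 peaks. Further such spans were 66.5 to 69, 77 to 79.5 and 91 to 93.5 Mb, with 130, 109 and 103 peaks. The share of repeated peaks was also lower at like window counts: in windows of 20 to 29 peaks it was 3.73% in the stretch (2.67 to 5.19%), 6.31% in the rest (4.75 to 8.34%) and 9.81% in the other autosomes. In windows of 30 to 39 peaks it was 6.92% in the stretch (5.43 to 8.79%), 9.14% in the rest (8.14 to 10.2%) and 11.8% in the other autosomes. In windows of 40 or more it was 6.88% in the stretch (4.58 to 10.2%), 11.8% in the rest (11.1 to 12.7%) and 12.1% in the other autosomes. The intervals of the stretch and of the rest of chromosome 6 overlapped in the first 2 of these classes and not in the last. The stretch lay below the value of the other autosomes in all 3. That last class rests on 7 windows of the stretch, of which the one from 86 to 86.5 Mb holds 10 repeated peaks. Because repeated peaks came in series, these intervals, which treat peaks as independent, are too narrow. In windows under 20 peaks, the share was 0.660% in the stretch (0.181 to 2.37%) and 8.11% in the other autosomes. Repeated peaks in the stretch had a median width of 326 bp and peaks listed once one of 306 bp.

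Across blocks of up to 5 Mb, density, width and repeats did not always move together. Density was 75 peaks per Mb from the gap to 65 Mb, 49.6 to 52.8 in the 3 blocks from 65 to 80 Mb, and 61 from 80 to 85 Mb. It was 54.2 from 85 to 90 Mb, 41.2 from 90 to 95 Mb, 53.2 from 95 to 100 Mb, 43.6 from 100 to 105 Mb and 63.0 from 105 to 107 Mb. The block from 90 to 95 Mb was the sparsest, at 0.508 of the density of the rest of chromosome 6. The share of peaks of 420 bp or wider was greatest in the 2 blocks from 80 to 90 Mb, 18.4% and 21.4%, and was 8.71 to 14.3% in all the others. The dense block at the gap was among those others, with 12.6%. Repeated peaks were most frequent from 70 to 75 Mb (9.30%) and from 85 to 90 Mb (7.75%), and least frequent from 100 to 105 Mb (2.29%) and from 80 to 85 Mb (2.62%). The block from 80 to 85 Mb thus combined many wide peaks with few repeats, while the block from 70 to 75 Mb, with the most repeats, had 12.0% of wide peaks.

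**Figure D5:**
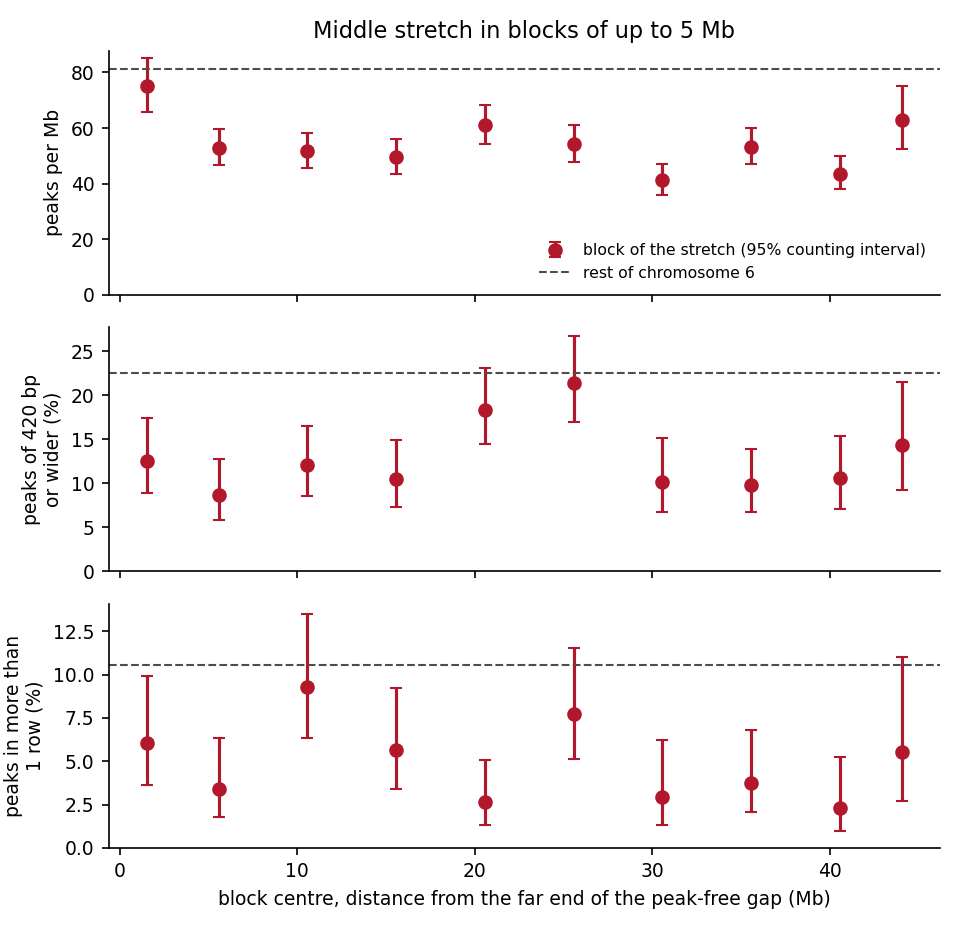
Peaks per Mb, share of peaks of 420 bp or wider and share of peaks listed in more than 1 row (vertical axes, top to bottom) in blocks of up to 5 Mb of the middle stretch, placed by the distance of the block centre from the far end of the peak-free gap in Mb. Points carry 95% counting intervals and the dashed lines are the rest of chromosome 6; only the block beside the gap has a density interval that reaches the dashed line, while the share of wide peaks comes closest to its line in the 2 blocks from 80 to 90 Mb (18.4% and 21.4%).

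Across the 90 windows of the stretch the number of peaks and their median width were weakly related (Spearman rho 0.27, Pearson r 0.31), about as in the 243 windows of the rest (rho 0.29, r 0.34). The number of peaks and the number of repeated peaks in a window had a rho of 0.47 in the stretch and 0.26 in the rest. Windows share the same pair of libraries, neighbouring windows are not independent, and a fuller window has more peaks to be repeated, so these values are descriptions with no test.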

How the data were processed

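The file analysed is 1 list of peak positions. Per the labels' protocols, crosslinked HepG2 chromatin was sheared by sonication, immunoprecipitated and sequenced on semiconductor instruments. The submitters' processing notes name BWA and hg19. Per the file header, the authors trimmed reads, removed duplicates and called peaks with MACS, with the knockdown H3K4me1 library as treatment and the control H3K4me1 library as control, a read and fragment length of 128 bp, a p-value cutoff of 1e-05 and an enrichment factor of 32. No version is stated in these sources. The deposited columns are chromosome, start and end, with no height, fold or p-value, so all peaks count alike and no stricter call could be taken.

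Identical rows among the 180505 were counted as 1 peak. The steps were written in Python 3.11.15 (scipy 1.17.1). Only the search for the sparse run and the density ratio were tested on simulated data. The simulated peaks were placed at random within each part, without the unevenness of the real windows. Peaks were placed by their midpoints, positions are counted from 1, and lengths leave out peak-free gaps over 1 Mb. Windows of 0.5 Mb were used where whole. Intervals are at 95% (exact Poisson for densities, exact conditional for ratios, Wilson for shares). They treat peaks as independent.

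The region, its limits and all measures were chosen with earlier results of these data known. Named by rule were the 10 widest peaks, the 5 fullest and 5 emptiest windows, the 5 longest gaps and the peaks with most rows (7, because 3 rows was a tie). Ties among windows were broken by position. The segments, the groups within 5 kb, the blocks, the comparison at like window counts and the pieces of other autosomes were added after the values were seen. Alternatives were merging peaks within 1 kb, keeping wider peaks, counting rows or covered bases, other windows and other limits.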

Additional observations from a re-analysis of the deposited data

How the results depend on the processing

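The ratio of the density of the stretch to that of the rest of chromosome 6 stayed under 1 in every alternative run. It was 0.655, and became 0.575 when only peaks no narrower than the median of the whole list were kept, 0.569 by covered bases, 0.616 when every row was counted and 0.624 for the sparse run alone. It was within its interval with merged peaks and with either flank alone. The start of the sparse run stayed at 65 to 65.5 Mb except with 0.25 Mb windows (68.25 Mb) and with the wider peaks (68 Mb). Its end was 105.25 Mb with 0.25 Mb windows and with the shifted grid, 105 Mb with the wider peaks and 108 Mb with 1 Mb windows. Both limits thus moved by about as much, over 65 to 68.25 Mb and over 105 to 108 Mb. The density of the stretch itself was 48.0 peaks per Mb with peaks within 1 kb merged, 24.9 for the wider peaks, 55.9 by rows and 50.6 for the sparse run. Merging also gave a median width of 318 bp, 19.97% of peaks of 420 bp or wider, a median gap of 13.4 kb and 36.8% of peaks with a neighbour within 5 kb. Keeping the wider peaks gave a median gap of 24.5 kb and 28.8% with such a neighbour. At 1 kb and 20 kb the neighbour shares were 18.0% and 89.5%. These shifts follow from fewer peaks, longer peaks or another distance. The share of repeated peaks was 5.52% among the wider peaks in the stretch and 12.0% among those in the rest. With 1 library per condition there was no replicate to leave out. No paired analysis was possible because a single library stands for each group. The unknown depth is a limit on every density here, and a window with few peaks does not show that H3K4me1 was the same in both conditions. Copy number and mappability were not measured, and their part in the low density was not tested.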
